A study of Homo sapiens with 8 samples.

Results

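The 52 genes described here encode parts of the centrosome and of the cilium: centriole and pericentriolar proteins, centriolar satellites, intraflagellar transport (IFT) subunits, the BBSome, the transition zone, and kinases, kinesins and DZIP proteins that act at these structures. They were taken by gene name from a fixed list, and every listed gene was read whatever its values. The list was drawn up with earlier results of these data known. The unit of the authors' deposited tables was the local splicing variation (LSV), the set of junctions, and of a retained intron where there is one, that leave or enter the same exon. Of the 52 genes, 49 had at least 1 LSV in the table of PMA-stimulated cells, among 11039 genes in all, and 50 had one in the table of unstimulated cells, among 10965. They held 664 of 91729 LSVs in stimulated cells and 709 of 91480 in unstimulated cells. CC2D2A and KIF24 had none in either table, and CEP112 had none in stimulated cells.

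Polyadenylated RNA of JSL1 cells, a monoclonal T cell line derived from Jurkat, was sequenced from strand-specific libraries. The 4 groups were PMA-stimulated cells depleted of CELF2 (shCELF2), PMA-stimulated control cells, unstimulated shCELF2 cells and unstimulated control cells, with 2 libraries each. The stimulus was the phorbol ester PMA at 20 ng/mL for 48 hours, and depletion used doxycycline-inducible short hairpin RNAs stably integrated by lentivirus. CELF2 is an RNA-binding protein that regulates splicing and binds RNA rich in UGU. The labels do not say whether control cells carried a hairpin or received doxycycline, so an effect of either cannot be told apart from depletion. All cells share the line's own background, a single transformed clone. As a check of the label, 12 of 15 T lymphocyte marker genes had an LSV, against 1 of 9 marker genes of other cell types, CD79A; the tables hold no expression levels.

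Centrosomes are built of centrioles surrounded by a protein matrix that nucleates microtubules, and the older centriole can act as the basal body of a cilium. Intraflagellar transport carries cargo along the cilium, the BBSome adapts membrane cargo to it, and the transition zone gates its base. Lymphocytes are not known for primary cilia, but they move the centrosome to the immune synapse and use IFT20 and other transport subunits there.

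Each junction had 1 expected share per group, called its usage or, for an exon, its inclusion. The value stands for both libraries of the group together, so it has no replicate error and its read depth is unknown. Usage in the tables runs from 2.5% to 97.5%, so a value at either end is a limit. The authors' posterior probability that usage changed by at least 20 percentage points was the measure of error; it is not a p-value. An LSV was called where this probability was at least 0.95 in any of its junctions. The verbs rose and fell are kept for called changes, and shCELF2 minus control, or PMA minus unstimulated, is the direction of every difference.

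The exons on which the results turn are printed so that they can be read beside their usage. They are the 9 annotated coding exons whose inclusion was called changed in 7 genes, and the CEP170 exon with 3 alternative ends. Capitals in the 9 exons mark TGT, the DNA letters of UGU, searched on the transcribed strand alone, with overlapping matches counted. Sequences are from GENCODE 29 transcripts, 5′ to 3′, and positions are in GRCh38.
CEP70 80-nt exon, chr3:138498031-138498110, minus strand: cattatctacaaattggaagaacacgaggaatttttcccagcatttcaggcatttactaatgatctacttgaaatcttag
CEP95 106-nt exon, chr17:64516723-64516828, plus strand: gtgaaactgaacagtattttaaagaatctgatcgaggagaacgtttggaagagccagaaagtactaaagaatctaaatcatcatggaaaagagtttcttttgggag
IFT122 79-nt exon, chr3:129458599-129458677, plus strand: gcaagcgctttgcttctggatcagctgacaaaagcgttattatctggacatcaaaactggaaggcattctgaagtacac
IFT122 77-nt exon, chr3:129461228-129461304, plus strand: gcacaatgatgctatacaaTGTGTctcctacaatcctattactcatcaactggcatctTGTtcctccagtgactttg
MKS1 98-nt exon, chr17:58214741-58214838, minus strand: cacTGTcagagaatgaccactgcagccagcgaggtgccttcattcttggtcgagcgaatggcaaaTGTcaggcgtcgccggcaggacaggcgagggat
NEK1 132-nt exon, chr4:169555720-169555851, minus strand: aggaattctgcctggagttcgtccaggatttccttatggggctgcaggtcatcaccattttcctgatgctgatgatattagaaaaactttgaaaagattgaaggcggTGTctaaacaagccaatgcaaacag
RPGRIP1L 102-nt exon, chr16:53638310-53638411, minus strand: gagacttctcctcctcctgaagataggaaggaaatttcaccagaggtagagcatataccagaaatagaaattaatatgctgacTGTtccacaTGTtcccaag
TTC8 90-nt exon, chr14:88841425-88841514, plus strand: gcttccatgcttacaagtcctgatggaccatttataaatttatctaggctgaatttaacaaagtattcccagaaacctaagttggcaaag
TTC8 84-nt exon, chr14:88875026-88875109, plus strand: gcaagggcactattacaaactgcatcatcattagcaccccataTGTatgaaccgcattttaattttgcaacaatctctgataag
CEP170 178-nt exon, chr1:243142286-243142463, minus strand: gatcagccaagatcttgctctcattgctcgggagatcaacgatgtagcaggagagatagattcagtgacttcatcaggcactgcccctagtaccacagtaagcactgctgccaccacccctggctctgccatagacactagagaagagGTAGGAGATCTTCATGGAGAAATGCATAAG
In the CEP170 exon the capitals mark the last 30 nucleotides, which only its longest form holds. TGT occurred in 5 of the 9 exons. The 77-nt IFT122 exon held 3 copies, and 12.6% of the 968 coding exons of that length in GENCODE hold as many. The MKS1 and RPGRIP1L exons held 2 copies each, as many as 45.5% of 1174 and 45.4% of 1510 coding exons of their lengths. NEK1 and the 84-nt TTC8 exon held 1, which 84.6% and 70.0% of such exons reach. The exons of CEP70 and CEP95, the 79-nt IFT122 exon and the 90-nt TTC8 exon held none. These counts describe the exons alone, since the flanking introns were not read here.

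With PMA, 7 of 49 genes had a called LSV (14.3%), against 10.6% of all genes in that table. These genes carry more LSVs than most, with a median of 12 per gene against 7 over all genes. Among all genes of like LSV number the share called was 15.51%, or 7.6 genes, so the count of 7 was near the background. Of their 664 LSVs, 10 were called (1.51%), against 1.87% of all LSVs. The 7 genes were CEP70, CEP95, CEP170, KIF27, MKS1, NEK1 and TTC8.

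Without PMA, 7 of 50 genes had a called LSV (14%), against 6.2% of all genes. At like LSV number the share was 8.86%, or 4.43 genes. Of their 709 LSVs, 10 were called (1.41%), against 0.985% of all LSVs. The genes were CEP128, CEP170, DZIP1, IFT122, KIF27, RPGRIP1L and TTC8. Together 11 of 50 genes were called in either state (22%), and the share of all genes called in either state was not computed. CEP170, KIF27 and TTC8 were called in both states, 3 of 49 genes (6.1%) against 2.72% of all genes. That share of all genes was not matched for LSV number, which is higher in the genes described here. The difference between these shares and the background was not tested. By role, the called genes of stimulated and unstimulated cells numbered 3 of 19 and 2 of 20 among centriole and centrosome proteins. They numbered 1 of 6 in each state for the BBSome and 1 of 8 in each state for the transition zone. Of IFT subunits 0 of 8 and 1 of 8 were called, of kinases, kinesins and DZIP proteins 2 of 5 in each state, and of the 3 satellite genes 0 in each state.

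**Figure D1:**
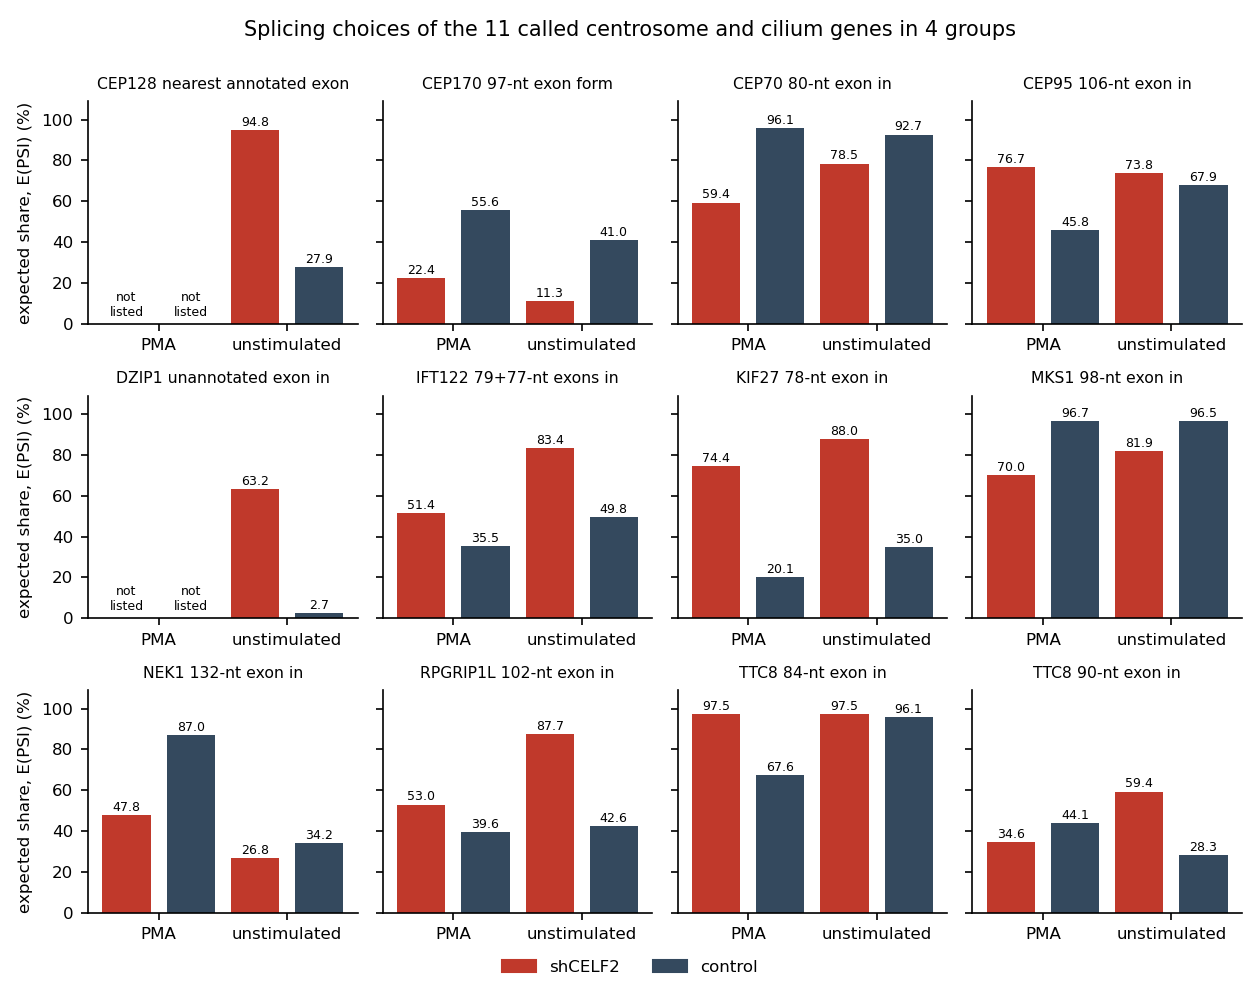
Usage (expected share in percent) of 1 junction or exon for each of the 12 called events in the 4 groups, PMA-stimulated shCELF2 and control cells at the left and unstimulated shCELF2 and control cells at the right; each bar is the authors' value for both libraries together, with no error bar available. KIF27 had 74.4% and 88.0% in shCELF2 cells against 20.1% and 35% in control cells, while inclusion of the NEK1 exon was highest in PMA-stimulated control cells at 87.0%.

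Among subdistal appendage proteins of the mother centriole, CEP170 switched between 3 alternative 5′ splice sites of a coding exon in both states. The exon, on the minus strand of chromosome 1, is 178, 148 or 97 nucleotides long. The ends differ by 30 and 51 nucleotides, both multiples of 3. In its printed sequence the capitals mark the 30 nucleotides of the 178-nt form alone. The 51 nucleotides before them, which the 97-nt form lacks, are not marked. With PMA the 97-nt form had a usage of 22.4% in shCELF2 cells and 55.6% in control cells (posterior 0.999). Without PMA it had 11.3% in shCELF2 cells and 41.0% in control cells (0.987). This form fell on depletion in both states. The 148-nt form had 56.9% in shCELF2 cells against 32.1% in control cells with PMA (0.919), and 80.9% against 50.9% without PMA (0.982). It rose in unstimulated cells and, with PMA, lay 24.8 points higher without reaching the call. The 178-nt form had 20.7% and 12.4% with PMA, and 7.9% and 8.1% without, in shCELF2 and control cells, and was called in neither state. Reads of the pseudogene CEP170P1 may be counted with those of CEP170.

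CEP128, also at subdistal appendages, had the widest difference of the 52 genes, at an LSV listed in unstimulated cells only. The junction that joins a 156-nt exon on chromosome 14 to its nearest annotated upstream exon had a usage of 94.8% in shCELF2 cells and 27.9% in control cells (posterior 1.0). Joining to a 97-nt exon farther upstream had 4.1% in shCELF2 cells and 33.9% in control cells, and to a 108-nt exon 2.6% in shCELF2 cells and 36.6% in control cells. An unannotated junction to a still nearer site had 2.6% in shCELF2 cells and 2.5% in control cells. The nearest annotated exon therefore took nearly all usage after depletion, where control cells divided it over 3 exons. The 12 LSVs of CEP128 listed in stimulated cells had posteriors of at most 0.0108.

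CEP70, a centrosomal protein that binds gamma-tubulin, lost an 80-nt coding exon in stimulated shCELF2 cells (hg19 chr3:138216873-138216952). Measured from the exon downstream, inclusion was 59.4% in shCELF2 cells and 96.1% in control cells with PMA (posterior 0.9997), and 78.5% and 92.7% without PMA (0.1744). Measured from the exon upstream it was 72.7% in shCELF2 cells and 96.9% in control cells with PMA (0.9501), and 86.1% and 94.8% without PMA. Inclusion was lowest in PMA-stimulated shCELF2 cells on both sides. The values of the sides differ most for that same group. No GENCODE 29 transcript skips the exon. Its length leaves a remainder of 2, and in the reference transcript the frame without it meets a stop 7 nucleotides past the new junction, giving 552 codons in place of 597.

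CEP95, found at centrosomes, gained a 106-nt coding exon in stimulated shCELF2 cells (hg19 chr17:62512841-62512946). Its inclusion was 76.7% in shCELF2 cells and 45.8% in control cells with PMA (posterior 0.955), against 73.8% and 67.9% without PMA (0.0037). PMA-stimulated control cells stood apart, 22.1 points from the nearest group, while the other 3 groups spanned 8.8 points. Skipping occurs in GENCODE in a nonsense-mediated decay and a protein-coding transcript. In the reference transcript it shifts the frame and leaves 157 of 821 codons, with 14 exon junctions after the stop. Its posterior was the lowest among the called genes of stimulated cells.

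Of the kinases and kinesins, KIF27, a kinesin whose mouse counterpart acts in motile cilia, was called with the same sign in both states. A 78-nt exon (hg19 chr9:86468152-86468229) had neither of its flanking junctions in GENCODE 29. With PMA it had an inclusion of 74.4% in shCELF2 cells and 20.1% in control cells (posterior 0.9997). Without PMA it had 88.0% in shCELF2 cells and 35% in control cells (1.0), and from its other side 87.4% and 43.2% (0.9992). The exon rose by 54.3 points with PMA and 53.0 points without. Its length is a multiple of 3.

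NEK1, a NIMA-related kinase of cilia and of the DNA damage response, had a 132-nt coding exon (hg19 chr4:170476871-170477002) that fell in stimulated shCELF2 cells. From the upstream exon its inclusion was 47.8% in shCELF2 cells and 87.0% in control cells with PMA (posterior 0.986), and 26.8% and 34.2% without PMA. From the downstream exon it was 52.4% and 89.2% with PMA (0.989), and 39.0% and 46.9% without PMA. Stimulated control cells stood apart on both sides, by 39.2 and 36.8 points from the nearest group, with the other 3 groups spanning 21.0 and 13.4 points. Skipping keeps the frame, with 1242 codons against 1286, and occurs in 3 protein-coding GENCODE transcripts.

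DZIP1, required for ciliogenesis and Hedgehog signaling in zebrafish, had a called LSV on chromosome 13 that was listed in unstimulated cells only. An incoming junction absent from GENCODE 29 had a usage of 63.2% in shCELF2 cells and 2.7% in control cells (posterior 1.0). The other side of the exon it comes from was not read. The annotated junction had 36.8% in shCELF2 cells and 97.3% in control cells. The unannotated junction was therefore near the lower limit of the tables in control cells and the more used of the pair after depletion.

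Among IFT genes, IFT122 alone was called, and only without PMA; the difference between states was not tested. It encodes a subunit of IFT-A, the complex for return transport. Adjacent coding exons of 79 and 77 nucleotides (hg19 chr3:129177442-129177520 and chr3:129180071-129180147) were included or skipped as a pair. The junction leaving the 77-nt exon had 51.4% in shCELF2 cells and 35.5% in control cells with PMA (posterior 0.2315), and 83.4% and 49.8% without PMA (0.9975). The junction entering the 79-nt exon had 48.9% in shCELF2 cells and 53.5% in control cells with PMA (0.0022), and 81.9% and 51.9% without PMA (0.981). Both junctions were highest in unstimulated shCELF2 cells. Skipping of both exons had 46.7% in shCELF2 cells and 59.5% in control cells with PMA, and 12.6% and 45.3% without PMA. Skipping the pair removes 156 nucleotides and keeps the frame, with 1189 codons against 1241, whereas skipping either exon alone does not keep it. The junction that skips the 77-nt exon alone had at most 4.5% in any group. Pseudogenes IFT122P1, IFT122P2 and IFT122P3 may share reads.

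In the BBSome, TTC8 (also named BBS8) was called in both states at different exons. Its 84-nt coding exon (hg19 chr14:89341370-89341453) was included at 97.5% in shCELF2 cells and 67.6% in control cells with PMA (posterior 0.9957), against 97.5% and 96.1% without PMA. The other side gave 97.2% and 66.7% with PMA (0.9952), and 97.4% and 93.8% without PMA. Skipping was thus appreciable in PMA-stimulated control cells alone, which stood 28.5 and 27.1 points from the nearest group while the other 3 groups spanned 1.4 and 3.6 points. The exon loss in PMA-stimulated control cells keeps the frame, with 503 codons against 531. The 90-nt exon (hg19 chr14:89307769-89307858) had 34.6% in shCELF2 cells and 44.1% in control cells with PMA (0.0256), and 59.4% and 28.3% without PMA (0.985), where it rose. Only its upstream side was called. Averaged over both sides its inclusion was 34.95% in shCELF2 cells and 35.65% in control cells with PMA, and 50.9% and 23.9% without PMA. The sides differed by 0.7 points in shCELF2 cells and 16.9 points in control cells with PMA, and by 17 points and 8.8 points without PMA.

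At the transition zone, MKS1, a gene of Meckel syndrome, lost a 98-nt coding exon in stimulated shCELF2 cells (hg19 chr17:56292102-56292199). Its inclusion was 70.0% in shCELF2 cells and 96.7% in control cells with PMA (posterior 0.982), and 81.9% and 96.5% without PMA (0.212). It was lower in shCELF2 cells in both states, and only the difference with PMA was called. In GENCODE the skipping junction occurs in a nonsense-mediated decay transcript. The frame without the exon gives 164 codons in place of 559, with 12 exon junctions after the stop.

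RPGRIP1L, which assembles the transition zone, gained a 102-nt coding exon in unstimulated shCELF2 cells (hg19 chr16:53672222-53672323). Inclusion was 53.0% in shCELF2 cells and 39.6% in control cells with PMA (posterior 0.064), and 87.7% and 42.6% without PMA (0.9998). The other side gave 51.5% and 49.7% with PMA, and 89.1% and 45.0% without PMA. Unstimulated shCELF2 cells stood 34.7 and 37.6 points from the nearest group. Skipping keeps the frame, with 1281 codons against 1315.

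Which group stood apart thus differed between genes. A group was said to stand apart where its gap to the nearest group was wider than the range of the other 3. Of 18 LSVs called in either state, 15 were listed in both tables, in 9 genes. PMA-stimulated control cells stood apart at 5 LSVs of 3 genes (CEP95, NEK1 and the 84-nt exon of TTC8). Unstimulated shCELF2 cells stood apart at 4 LSVs of 2 genes (IFT122 and RPGRIP1L), and PMA-stimulated shCELF2 cells at 2 LSVs of CEP70. No group stood apart at the other 4 LSVs, those of CEP170, KIF27, MKS1 and the 90-nt exon of TTC8. Each group that stood apart belonged to the pair of groups whose difference was called. Choosing LSVs by that call favours this, and the pattern over all called LSVs was not computed. With 1 value per group, an unusual library in a group and a response of that group cannot be told apart.

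The 2 tables share no library, so the LSVs called in either one can be read in the other. All 10 LSVs called with PMA were listed without PMA, and all 10 differed in the same direction there, against 84.4% of all such LSVs in the table. Of these, 4 did so by at least 10 points (40%), against 56.0% of all. Their median difference was 32.0 points with PMA and 8.3 points without, against 32.2 and 12.5 points over all called LSVs. Of the 10 LSVs called without PMA, 7 were listed with PMA, 5 differed in the same direction (71.4%) and 4 by at least 10 points (57.1%), against 86.5% and 69.4% of all such LSVs. Of their LSVs, only those of CEP170 and KIF27, 2 of 18, were called in both states. Over all 1685 junctions of these genes listed in both tables, 80 in 26 genes differed by at least 20 points in either state. The sign was the same in both states for 67 of those (83.8%), against 77.7% of the 8142 such junctions over all genes. The LSVs and junctions in these counts are not independent. CEP70, NEK1 and TTC8 with PMA each gave 2 called LSVs that read the same exon from both sides. IFT122, KIF27 and RPGRIP1L did so without PMA, IFT122 for its exon pair. Both junctions of a 2-junction LSV also mirror each other.

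**Figure D2:**
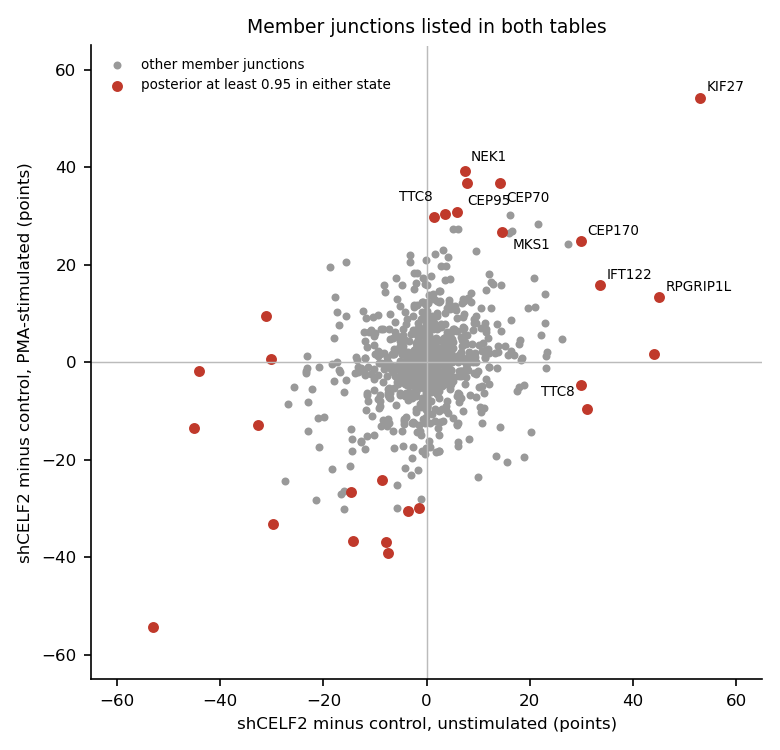
Difference in usage, shCELF2 minus control in percentage points, with PMA (vertical axis) and without PMA (horizontal axis) for the 1685 junctions of these genes listed in both tables; red points have a posterior of at least 0.95 in either state, and junctions of a 2-junction LSV mirror each other. KIF27 lies at 54.3 and 53.0 points, whereas NEK1, CEP95 and the 84-nt TTC8 exon lie near 0 on the horizontal axis and the 90-nt TTC8 exon lies below 0 on the vertical axis.

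Taken gene by gene, the junction with the widest difference on depletion spanned 3.4 to 54.3 points with PMA, with a median of 16.9 points against 9.8 over all genes. Without PMA it spanned 0.3 to 66.9 points, with a median of 17.0 against 8.1. Part of that follows the larger number of LSVs per gene. The median at like LSV number was 13.6 points with PMA and 11.2 points without. Ranked among genes of like LSV number, the 49 genes with PMA had a median percentile of 60.1 and 30 lay above the 50th, and the 50 genes without PMA had 67.7 and 35. In each state 17 genes had a difference of at least 20 points. Of the genes not called, 16 of 42 with PMA and 17 of 43 without PMA had no posterior above 0.1.

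Among the genes not called, the widest difference varied within each role. In the 16 centriole and centrosome genes not called with PMA it ran between 5.0 points in CEP97 and 30.2 points in ALMS1, and in the 18 without PMA between 0.3 points in CEP112 and 23.4 points in CEP350. IFT genes had 5.9 points in IFT80 to 21.8 points in IFT20 with PMA, and 7.7 points in TTC21B to 26.9 points in IFT140 without PMA. BBSome genes had 3.4 points in BBS2 to 27.0 points in BBS1 with PMA, and 6.9 points in BBS2 to 22.2 points in BBS1 without PMA. BBS2 was low in both states, at the 8.5th percentile with PMA and the 30.7th without among genes of like LSV number. At the transition zone, TCTN2 was the lowest, at 3.8 points with PMA and 7.7 points without. It had 1 LSV, and at like LSV number it lay at the 48.2nd and 66.9th percentile. RPGR was the widest transition zone gene not called in both states, at 28.4 points with PMA and 27.4 points without. The satellite genes PCM1, CCDC14 and OFD1 lay between 16.9 and 27.4 points with PMA and between 17.6 and 20.9 points without. NEK4, DZIP1 and DZIP3 lay between 9.5 and 14.2 points with PMA, and NEK1, NEK4 and DZIP3 between 11.4 and 15.6 points without.

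**Figure D3:**
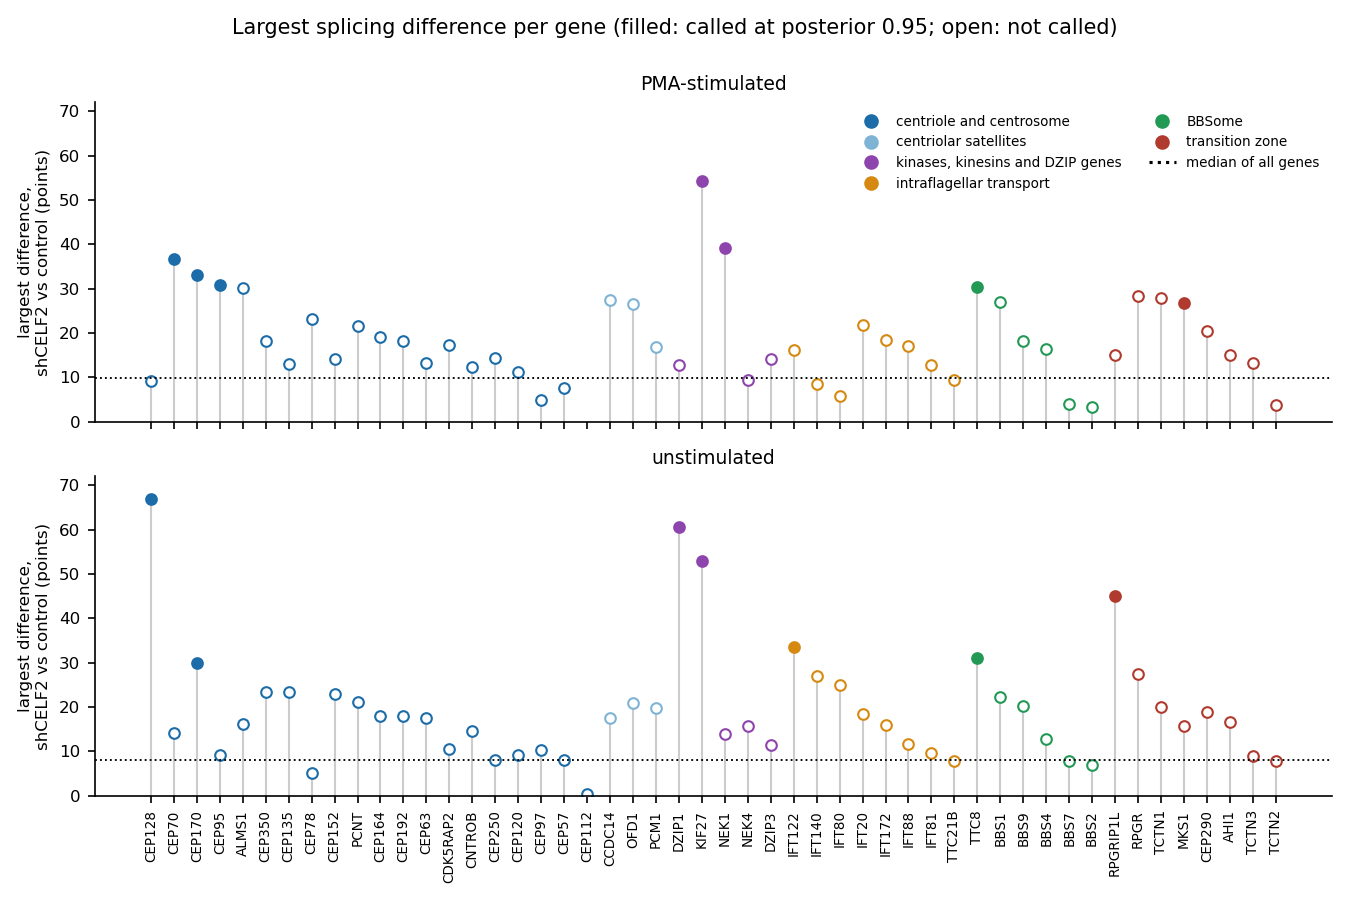
Widest difference in junction usage on CELF2 depletion (percentage points, absolute value) per gene, with PMA in the upper panel and without PMA in the lower; colours are roles, filled points mark genes with a called LSV and the dotted line is the median over all genes. KIF27 reached 54.3 points with PMA and CEP128 66.9 points without PMA, while BBS2 reached 3.4 points with PMA.

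Some genes had differences of similar size that were not called. The 10 widest of these spanned 20.5 to 30.2 points with PMA (posterior 0.55 to 0.944) and 20.2 to 27.4 points without PMA (0.423 to 0.923). With PMA 5 were higher and 5 lower in shCELF2 cells, and without PMA 4 were higher and 6 lower. The genes with PMA were ALMS1, RPGR, TCTN1, CCDC14, BBS1, OFD1, CEP78, IFT20, PCNT and CEP290. Those without PMA were RPGR, IFT140, IFT80, CEP350, CEP135, CEP152, BBS1, PCNT, OFD1 and BBS9. RPGR, BBS1, OFD1 and PCNT were in both sets.

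RPGR, the retinitis pigmentosa GTPase regulator at the transition zone, came near the call in both states. A junction that joined a 66-nt exon directly to a 186-nt exon had 63.5% in shCELF2 cells and 35.1% in control cells with PMA (posterior 0.928), and 53.7% and 32.2% without PMA (0.669). From the upstream exon the same junction had 65.6% and 41.3% with PMA (0.756), and 58.8% and 31.4% without PMA (0.905). All 4 readings were higher in shCELF2 cells, by 21.5 to 28.4 points, and none was called.

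BBS1, a BBSome subunit, had a 35-nt exon whose skipping was higher in shCELF2 cells on both sides in both states. From the downstream exon, skipping was 30.6% in shCELF2 cells and 3.6% in control cells with PMA (posterior 0.924), and 21.9% and 5.3% without PMA (0.388). From the upstream exon it was 19.1% and 3.0% with PMA, and 17.1% and 4.3% without PMA. A 125-nt exon of OFD1, a satellite and centriole protein, had an inclusion averaged over both sides of 15% in shCELF2 cells and 39.35% in control cells with PMA, and 10.3% and 19.15% without PMA. ALMS1, the Alström syndrome protein at the centriole base, had a junction at 55.2% in shCELF2 cells and 25.0% in control cells with PMA (0.877), and 35% and 18.9% without PMA. CCDC14, a satellite protein, had a spliced junction at 63.4% in shCELF2 cells and 36.0% in control cells with PMA (0.944), just under the call, whereas CEP95 at 0.955 was just over it. IFT140 of the IFT-A complex had a junction at 4.9% in shCELF2 cells and 13.4% in control cells with PMA, and 10.5% and 37.4% without PMA (0.923).

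Simple cassette exons numbered 234 in 47 of the genes with PMA, of which 5 were called (2.14%), against 1.21% of 24146 cassette exons over all genes. Of the 5, 2 were higher and 3 lower in shCELF2 cells. Without PMA, 4 of 250 were called (1.6%), all higher in shCELF2 cells, against 0.642% of 24284, of which 85 were higher and 71 lower. Median inclusion of the exons of these genes in control cells was 87.8% with PMA and 86.9% without, against 93.9% and 93.2% over all genes. Those at 10% to 90% in control cells made up 16.2% with PMA and 14.4% without, against 12.7% and 12%. Where such an exon was measured from both neighbours, the sides differed by a median of 4.2 points in 15 exons with PMA and 4.7 points in 13 without. Of those, 9 of 15 and 10 of 13 had a length that is a multiple of 3, against 50.2% and 53.7% of such exons over all genes.

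No retained intron of these genes was called. There were 46 in 25 genes with PMA, against 377 called of 15828 over all genes, and 49 in 27 genes without PMA, against 213 of 15664. Called introns were thus rare over all genes too, and the lack of a call among so few introns is not a trait of these genes. LSVs with a retained intron made up 11.6% of their LSVs with PMA and 11.7% without, against 30.1% and 29.7% of all LSVs. IFT20 had an intron of 104 nucleotides whose flanks gave unlike readings. From its higher genomic end retention was 23.4% in shCELF2 cells and 45.2% in control cells with PMA, and 29.7% and 48% without PMA, whereas from its lower end it was at the upper limit of 97.5% in all 4 groups. A 76-nt intron of BBS1 was retained at 92.7% in shCELF2 cells and 73.0% in control cells with PMA, and 97.3% and 94.5% without PMA. A 745-nt intron of PCNT, the pericentrin gene, had 42.55% in shCELF2 cells and 56.9% in control cells with PMA, and 29.25% and 50.2% without PMA, averaged over both flanks. Median retention in control cells, over the introns of these genes, was 15.1% with PMA and 10.6% without, with flanks averaged where both were measured.

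The effect of PMA itself was read across the 2 tables, which the authors quantified separately and for which there is no posterior. A gene was counted where the same junction differed by at least 20 points in the same direction in shCELF2 and in control cells. CDK5RAP2, CEP164 and NEK1 met this, 3 of 49 genes (6.1%), against 2.37% of all genes and 3.38%, or 1.66 genes, at like LSV number.

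CDK5RAP2, which tethers gamma-tubulin ring complexes, differed by nearly the same amount in both kinds of cells. A junction to a 173-nt exon of chromosome 9 from its nearer upstream partner had 61.2% with PMA and 89.2% without in shCELF2 cells, and 50.1% with PMA and 78.7% without in control cells. The alternative junction, which passes over the nearer partner to a 138-nt exon, had 38.8% with PMA and 10.8% without in shCELF2 cells, and 49.9% and 21.3% in control cells. The junction was lower with PMA by 28.0 and 28.6 points in the 2 kinds of cells, while depletion made a difference of 11.1 points with PMA and 10.5 points without, neither of them called.

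CEP164, a distal appendage protein of the mother centriole, had a junction that joins a 168-nt to a 210-nt exon past a 147-nt exon. Its usage was 45.5% with PMA and 69.8% without in shCELF2 cells, and 38.7% with PMA and 64.5% without in control cells. The junction entering from the 147-nt exon had 54.2% and 29.9% in shCELF2 cells, and 60.9% and 34.0% in control cells, with and without PMA. Measured from the 168-nt exon, however, the skipping junction had 41.4% with PMA and 52.1% without in shCELF2 cells, and 30.8% and 64.4% in control cells. The difference in shCELF2 cells was 10.7 points, so CEP164 met the rule from the 210-nt exon alone. For NEK1, skipping of the 132-nt exon was 52.2% with PMA and 73.2% without in shCELF2 cells, and 13.0% with PMA and 65.8% without in control cells, the widest difference with PMA among these genes in control cells. From the downstream exon the same skipping was 47.6% with PMA and 61% without in shCELF2 cells, a difference under 20 points, and 10.8% and 53.1% in control cells, so NEK1 met the rule by its upstream side alone.

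The other genes with the widest shared PMA differences were CEP170, IFT172, OFD1, PCNT, IFT88, CEP192, IFT122, CCDC14, KIF27, CEP70, DZIP1 and MKS1. For the 15 genes together, the smaller of both differences was 12.3 to 28.0 points, with 9 junctions lower and 6 higher with PMA. The median over 49 genes was 6.9 points, and 17 genes were under 5 points. IFT88, an IFT-B subunit, had a junction at 40.1% with PMA and 24.3% without in shCELF2 cells, and 46.6% and 18% in control cells. IFT172, also of IFT-B, had one at 65.8% with PMA and 84.2% without in shCELF2 cells, and 47.4% and 86.0% in control cells. CEP192, which recruits mitotic kinases to the centrosome, had one at 19.5% with PMA and 4.9% without in shCELF2 cells, and 32.2% and 9.3% in control cells. The direction was shared by construction. The PMA and depletion differences use the same 4 values and are not independent of each other.

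**Figure D4:**
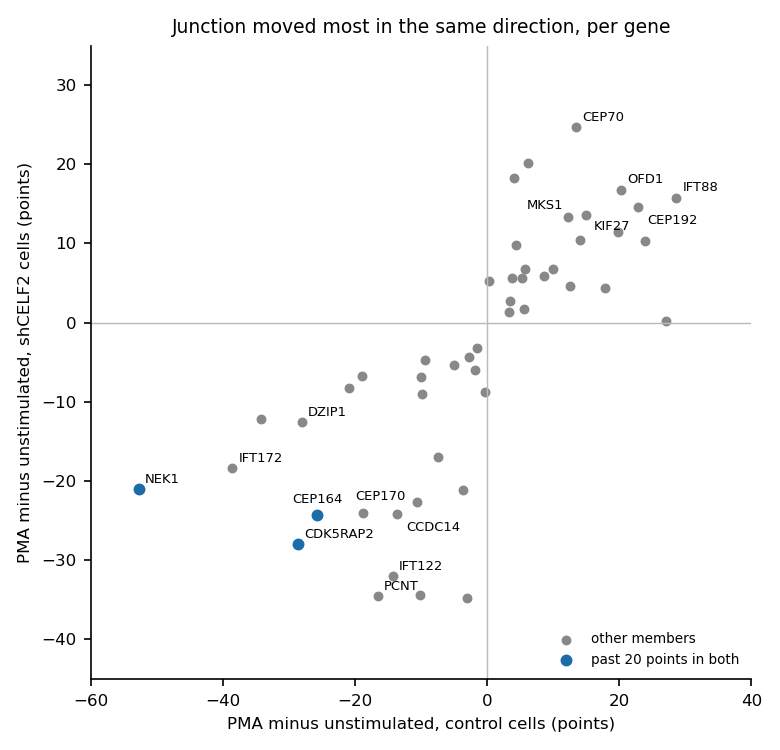
Difference in junction usage, PMA minus unstimulated in percentage points, in shCELF2 cells (vertical axis) and control cells (horizontal axis), for 1 junction per gene, the junction whose smaller shared difference is widest; this choice keeps every point in the quadrants of equal sign. CDK5RAP2 (28.0 points lower in shCELF2 cells and 28.6 in control cells), CEP164 and NEK1 are the 3 blue points.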

How the data were processed

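Splicing was measured by polyA-selected TruSeq stranded RNA-seq of 8 libraries in 4 groups. Alignment software STAR 2.5.1b and the genome build hg19 are listed, per the submitters' processing notes, without their role. The deposited tables, 1 per state, have the column names of VOILA, the output program of MAJIQ; its version, annotation and read filters were not stated. For each junction the authors deposited the expected share per group as a fraction, printed here in percent, the expected change as a fraction, and a posterior probability as a fraction that this change is at least 20 points. Both libraries of a group enter 1 share, so no standard deviation, interval or test between libraries was possible, and nothing says whether the libraries came from separate cultures. Depth is unknown. 0 columns of per-sample values were left unused.

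An LSV was called at a posterior of at least 0.95, and a gene with any called LSV. Like LSV number means 6 classes of LSVs per gene, the highest at 30 or more, weighted as the described genes are. In these tables the words source and target in LSV IDs follow the genome and not the transcript on the minus strand (all 44975 such LSVs with PMA and 44868 without), so the type letter was used. All 23428 junctions with PMA and 17368 without whose shares differed by over 10 points had the sign of shCELF2 minus control in the authors' change. Junctions were matched to GENCODE 29 by gene ID and equal intron length, and exons by equal length; codons were counted in annotated transcripts. Gene names came from the tables. Reads shared with pseudogenes (ALMS1P1, CEP164P1, CEP170P1, IFT122P1 and others) could not be told apart, and 3 LSVs per table are also listed under another gene ID, none called.

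The genes and lists were chosen with earlier results of these data known. Named were all genes with a called LSV, the 10 widest differences not called per state, and the 15 widest PMA differences shared by both kinds of cells; RPGR, BBS1, OFD1 and PCNT were detailed after their values were seen. Alternatives were other thresholds, other call rules and classes of LSV. Scripts used Python 3.11.15, numpy 2.4.6, pandas 2.3.3 and matplotlib 3.10.9 and were tested on simulated tables.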

Additional observations from a re-analysis of the deposited data

How the results depend on the processing

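At a posterior of 0.90 the genes called numbered 10 of 49 with PMA, 9 of 50 without and 4 of 49 in both states. The background was 19.09% and 11.65% of all genes at like LSV number with and without PMA, and 3.58% of all genes in both. At 0.99 they numbered 4 of 49 with PMA, 5 of 50 without and 1 of 49 in both, against 10.46%, 5.39% and 1.55%. Where a difference of 20 points alone made a call, there were 17 of 49 genes with PMA, 17 of 50 without and 7 of 49 in both. The background was 30.51%, 21.32% and 8.33%. Where an expected change of 20 points made it, there were 16 of 49 genes with PMA, 14 of 50 without and 6 of 49 in both. The background was 28.92%, 19.14% and 7.15%. Without LSVs that hold unannotated junctions, 4 genes were called with PMA and 4 without, against 8.18% and 4.29% of all genes at like LSV number. LSVs of 2 junctions alone left 4 genes without PMA, against 3.89%. LSVs of incoming junctions alone left 0 genes called in both states, at a posterior of 0.95 and with 5 genes called in each state, against 1.78% of all genes in both. How many of the described genes were read in each class is not given, so these counts and shares cannot be compared directly. For PMA, 0 of 49 genes passed 30 points and 21 of 49 passed 10 points. At like LSV number 0.46% and 22.15% of all genes did, so the share at 10 points was above that background. That difference was not tested. The cause of these shifts was not tested. Fewer LSVs are read where classes are left out. Leaving out retained-intron LSVs or reading LSVs listed in both tables kept each of these counts within 1.5 times. Of 527 per-gene widest differences under 5 classes of LSV, 303 were equal to within 0.05 points and 224 were not.

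Leaving out each replicate was not run, since the tables hold 1 value per group. No paired analysis was possible because both libraries of a group were merged into that value. The limits are thus an unknown spread between libraries, unknown depth, 2 tables quantified separately, and shares bounded at 2.5% and 97.5%.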

Other observations

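Of 112 further centrosome and cilium gene names, 96 had LSVs. With PMA 13 of 94 had a called LSV (13.8%), against 12.44% of all genes at like LSV number, and without PMA 8 of 96 (8.3%), against 7.27%. The list was fixed with earlier results known, and these shares were not tested.

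SDCCAG8 and STIL were among those called in both states. SDCCAG8, a centrosomal protein, had as its widest called junction 1 at 72.8% in shCELF2 cells and 41.2% in control cells with PMA and another at 48.3% and 91.1% without PMA. STIL, needed to build new centrioles, had a retained intron at 79% in shCELF2 cells and 42.5% in control cells with PMA, and a junction at 10.2% and 48.6% without PMA. In each gene both readings share an exon end (hg19 chr1:243468079 in SDCCAG8 and chr1:47765640 in STIL). They are alternatives at that end, so their opposite signs do not show opposite changes.

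With PMA, CNTRL, which encodes centriolin, had a junction at 29.1% in shCELF2 cells and 76.3% in control cells. FBF1, a distal appendage protein, had an intron at 45.0% in shCELF2 cells and 3.0% in control cells. Without PMA, SCLT1, also of the distal appendages, had a junction at 53.2% in shCELF2 cells and 93.4% in control cells.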
